A study of Homo sapiens with 8 samples.

Results

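RNA of 10 heat shock genes was examined in Hct116 cells, an established human colorectal carcinoma line, that had been kept for 16 h in 30 μM lenalidomide or in the matching amount of its solvent, DMSO. The genes were chosen by symbol from the 23459 rows of the gene count table and are HSF1, HSPA1A, HSPA1B, HSPA8, HSPH1, HSP90AA1, HSP90AB1, DNAJB1, HSPB1 and BAG3. All 10 were found, and 9 had enough counts to be tested. Each treatment had 4 libraries of total RNA. The series record and the study's legend for these RNA data call them biological replicates. For the matching protein experiment the study's legend says biological, whereas its methods say technical. Errors and p-values may therefore rest on technical spread only. When the drug or DMSO was added the amino acid label of the medium was exchanged, from light to heavy or, in the label swaps planned for 2 of the 4 replicates of each treatment, the reverse, and which libraries these are is not given in the sources used here. All cells came from this single line. Lenalidomide binds CRBN, the substrate receptor of a ubiquitin ligase, and redirects the ligase to proteins that are then degraded. The comparison asks whether 16 h of such induced degradation is accompanied by higher RNA of the chaperones that answer proteotoxic stress.

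Heat shock factor 1, the product of HSF1, is held inactive by chaperones in unstressed cells. When misfolded proteins draw the chaperones away, it trimerizes, binds heat shock elements in promoters and raises the transcription of chaperones of the HSP70, HSP90, HSP110, HSP40 and small heat shock protein families. Some members, among them HSPA8 and HSP90AB1, are made at high levels without stress, whereas HSPA1A, HSPA1B, DNAJB1 and BAG3 are known for strong induction by heat or proteasome inhibition.

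The element that HSF1 binds is built from inverted GAA units. The promoters are shown because the members are known as HSF1 targets, so that more matches than among all genes follow from the choice. In the 250 bases before each listed start, GAANNTTC or TTCNNGAA, each of which is its own reverse complement, was found for 7 of the 9 members with a promoter in the RefSeq table, against 14.0% of the 27305 genes in that table. Counted by listed start, 7 of 14 member promoters held such a match, against 11.6% of all 35116 promoters. A match of 3 units, in which a further inverted unit follows after 2 bases, was found for HSPA8, HSP90AA1 and HSP90AB1, 3 of 9 members, against 0.557% of genes. The 3-unit matches contain overlapping 2-unit matches, and a match is a description of the letters. No match was found in the windows of HSPH1 and BAG3. HSP90AA1, HSP90AB1 and DNAJB1 have more than 1 listed start, and the window with a match is shown. For HSPA8 the match nearest the start is shown. The sequences are RefSeq promoters of GRCh38.p14 that were placed on GRCh37, the build of the counts, by exact match. They read 5′ to 3′ on the strand of the gene, with the matches in capitals.
HSPA1A, chr6:31783194-31783241, plus strand: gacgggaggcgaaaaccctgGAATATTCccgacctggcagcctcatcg
HSPA1B, chr6:31795390-31795437, plus strand: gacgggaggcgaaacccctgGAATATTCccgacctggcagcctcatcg
HSPA8, chr11:122932879-122932907, minus strand: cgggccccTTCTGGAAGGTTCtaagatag
HSP90AA1, chr14:102553422-102553489, minus strand: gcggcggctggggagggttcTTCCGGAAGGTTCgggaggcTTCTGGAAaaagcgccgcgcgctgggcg
HSP90AB1, chr6:44215495-44215600, plus strand: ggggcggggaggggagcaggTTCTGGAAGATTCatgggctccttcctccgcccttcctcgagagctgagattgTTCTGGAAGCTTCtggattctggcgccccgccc
DNAJB1, chr19:14629229-14629306, minus strand: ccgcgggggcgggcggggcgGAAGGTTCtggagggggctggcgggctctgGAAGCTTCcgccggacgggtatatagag
HSPB1, chr7:75931788-75931835, plus strand: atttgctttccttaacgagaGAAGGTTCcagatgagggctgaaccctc

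None of the 9 tested members passed the test between the treatments. With edgeR's quasi-likelihood fit, adjusted over all genes by Benjamini and Hochberg, 0 of 9 were below the threshold of 0.05, where 0.0144% of 13925 genes were, all of them higher with lenalidomide. Without adjustment the count at 0.05 was also 0 of 9, where 4.18% of all genes stood (3.26% higher and 0.919% lower with lenalidomide). For 0 of 9 members did the 4 values of one treatment lie wholly above the 4 of the other, where 2.08% of all genes did (1.24% higher and 0.84% lower). DESeq2 and edgeR's likelihood ratio test also called 0 members. Log2 fold changes of lenalidomide against DMSO lay between -0.086 for HSPA1B and 0.066 for HSP90AA1, with a median of -0.023 for the 9 members and 0.0025 for all genes tested. With all libraries kept, the 95% confidence intervals of the 9 genes ran together from a fall of 17.4% to a rise of 18.2%. A larger change in either direction lay outside every one of these intervals, each of which covers its own gene only. Bounds were wider in some fits that left out 1 library. HSP90AB1 reached a lower bound of -0.34 on the log2 scale without DMSO replicate 2. HSP90AA1 reached an upper bound of 0.30 without lenalidomide replicate 1. In RNA from whole cultures, fewer cells with a transcript and less of it in each cell cannot be told apart.

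**Figure D1:**
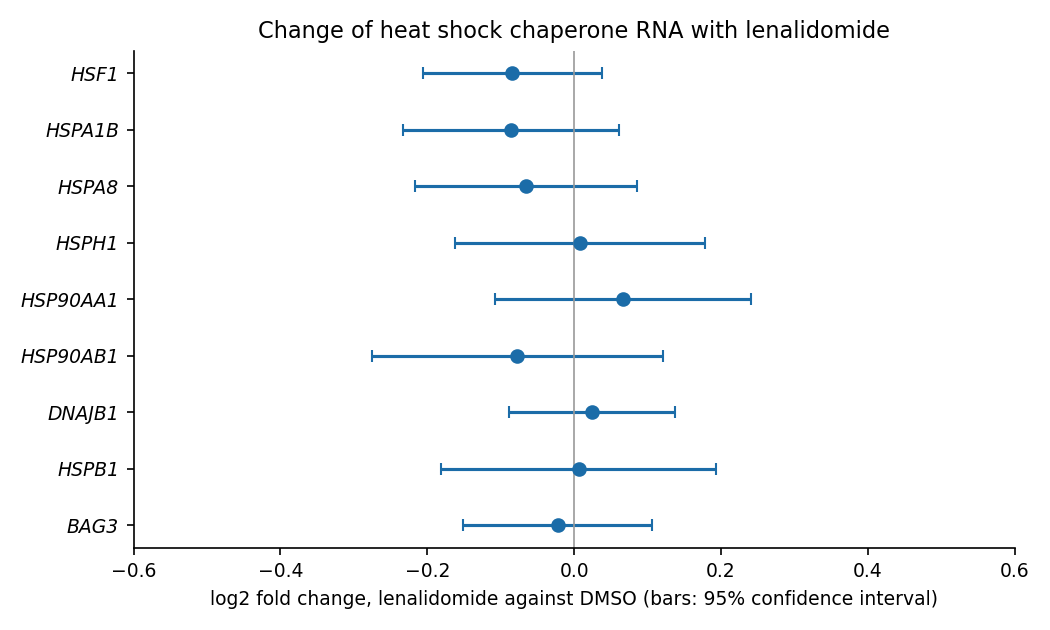
Log2 fold change of lenalidomide against DMSO on the x axis for the 9 tested heat shock genes on the y axis, with bars for the 95% confidence interval from edgeR's quasi-likelihood test. Every interval includes 0, and the estimates lie between -0.086 and 0.066.

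The 8 libraries held between 28218471 and 37473413 counts, and each lenalidomide library was smaller than each DMSO library (two-sided exact permutation test, p = 0.0286, the smallest that 4 against 4 allow). Values are therefore given as CPM, counts per 1000000 of library size after scaling with a TMM factor, which was between 0.971 and 1.02. Of 7 epithelial and colon markers fixed for this comparison, 6 were above 1 CPM in every library, and CEACAM5 was not. Summed over the set they stood between 2295 and 2596 CPM with DMSO and between 2221 and 2553 CPM with lenalidomide. Of the leukocyte markers, PTPRC, carried by nearly all leukocytes, was at 0 to 0.0535 CPM with DMSO and 0.0912 to 0.208 CPM with lenalidomide, which did not overlap but stood at few counts. CD14 was at 0 to 0.0347 CPM over the 8 libraries, and CD3E was at 0 in 7 of them. Of 4 fibroblast and endothelial markers 1 was above 1 CPM throughout, COL1A1, at 2.44 to 3.63 CPM, and their sums were 2.73 to 3.30 CPM with DMSO and 2.53 to 3.67 CPM with lenalidomide. Whether any cells of other types were present, and what part they would have in the results, was not tested.

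HSF1 encodes the transcription factor that drives the response. The gene spans bases 145515273 to 145538383 of chromosome 8 (GRCh37, plus strand). With DMSO it had 68.3, 71.4, 74.9 and 66.6 CPM in replicates 1 to 4, and with lenalidomide 70.9, 66.7, 63.3 and 64.2 CPM. Lenalidomide replicates 3 and 4 were below all DMSO values, and replicates 1 and 2 fell among them. This gave a log2 fold change of -0.084 (SE 0.057, 95% confidence interval -0.21 to 0.037, adjusted p = 0.999 by edgeR's quasi-likelihood test). Its unadjusted p of 0.159 was the smallest of any member and ranked 1870 among 13925 genes. Exons of DGAT1 on the opposite strand overlap 137 of its exonic bases, and since no strand setting is stated, reads there cannot be assigned to either gene.

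HSPA8 encodes the constitutive cytosolic HSP70, which folds new proteins and uncoats clathrin vesicles. It lies on chromosome 11 from 122928197 to 122933938 on the minus strand. With DMSO it stood at 6277, 6346, 7027 and 6078 CPM, and with lenalidomide at 5791, 6230, 6465 and 6094 CPM. The treatments overlapped, with DMSO replicate 3 above all other libraries and lenalidomide replicate 1 below them, at a log2 fold change of -0.066 (standard error 0.070, 95% confidence interval -0.22 to 0.085). Its exons, as annotated, contain the snoRNA genes SNORD14C and SNORD14D on the same strand, so that counts of the host and of these small RNAs could mix over 88 and 87 bases. A long noncoding RNA gene on the opposite strand overlaps 555 of its exonic bases, and reads there could belong to either.

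HSPA1A and HSPA1B encode the stress-inducible HSP70 and are neighbouring genes on chromosome 6, from 31783320 to 31785723 and from 31795515 to 31798031, each with 1 exon on the plus strand. Of the exonic bases of HSPA1B, 920 are shared with a long noncoding RNA gene on the same strand, and reads there could belong to either. HSPA1B had 90.1, 86.6, 78.5 and 94.8 CPM with DMSO and 81.5, 80.7, 91.1 and 76.2 CPM with lenalidomide. Lenalidomide replicate 3 was above 3 of the 4 DMSO values, and DMSO replicate 3 was below 3 of the 4 lenalidomide values. Its log2 fold change was -0.086 (standard error 0.068, 95% confidence interval -0.23 to 0.061). Without DMSO replicate 3 it was -0.14, and the quasi-likelihood p was 0.0442 before adjustment and 0.819 after. HSPA1B was the only member, in the fits that each left out 1 library, to reach an unadjusted p under 0.05.

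HSPA1A, in contrast, was almost without counts. It had 0, 1, 1 and 1 counts with DMSO and 2, 2, 1 and 1 counts with lenalidomide, at or under the floor of 3 counts in every library, so that it was not tested and no fold is given. The coding sequences of HSPA1A-201 and HSPA1B-201 differ at 4 of 1923 bases. Of the 32-base words in the HSPA1A exon, 76.6% occur again in the primary assembly of GRCh37, every one of these in HSPA1B, and 555 of 2373 words occur once. The authors aligned reads to UCSC hg19, and copies of these words outside the primary assembly were not searched for. Whether HSPA1A transcripts were few or their reads were not assigned to it cannot be told apart from the table. With the counts of both genes summed the log2 fold change was -0.086 (95% confidence interval -0.23 to 0.061, adjusted p = 0.999 by the quasi-likelihood test), which differs little from that of HSPA1B alone because HSPA1A adds at most 2 counts to a library.

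**Figure D2:**
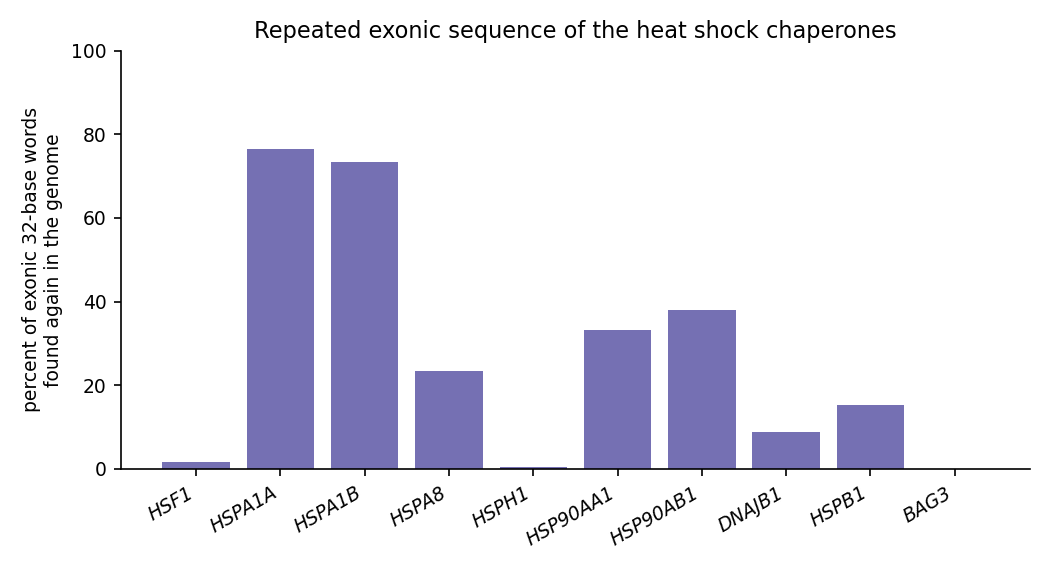
Percent of the 32-base words within annotated exons that are found at another place in the primary assembly of GRCh37, on the y axis, for the 10 heat shock genes on the x axis. HSPA1A and HSPA1B stand at 76.6% and 73.5%, HSP90AB1 and HSP90AA1 at 37.9% and 33.2%, and BAG3 at 0%.

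The table also gives these genes unusual lengths. The exonic width deposited for HSPA1A was 12145 bases and that for HSPA1B 12601 bases, 5.05 and 5.01 times the exonic bases of the GENCODE annotation on GRCh37. The same was seen for their neighbours. On chromosome 6 from 29000000 to 33000000, 128 of 137 protein-coding genes had a deposited width over 2 times the GENCODE width, with a median ratio of 5.81, whereas elsewhere 106 of 17918 did, with a median ratio of 0.804. The level of HSPA1B per length was 6.74 CPM per kb with the deposited width and 33.7 CPM per kb with the GENCODE width. Fold changes between treatments do not use the width.

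HSPH1 encodes an HSP110 chaperone that exchanges nucleotides on HSP70. It lies on chromosome 13 from 31709110 to 31736525 on the minus strand, and 0.496% of its 32-base words occur elsewhere. With DMSO it had 495, 484, 594 and 499 CPM, and with lenalidomide 473, 497, 585 and 527 CPM. Replicate 3 was the highest library of each treatment, and the values overlapped, at a log2 fold change of 0.0075 (standard error 0.079, 95% confidence interval -0.16 to 0.18).

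HSP90AA1 and HSP90AB1 encode the inducible and the constitutive cytosolic HSP90, which mature kinases and steroid receptors. HSP90AA1 lies on chromosome 14 from 102547079 to 102606036 on the minus strand, and 197 of its exonic bases overlap WDR20 on the other strand. It had 7511, 7550, 8799 and 7984 CPM with DMSO and 7523, 8223, 9251 and 8348 CPM with lenalidomide. Lenalidomide replicate 3 was the highest of all libraries, and the other lenalidomide replicates lay within the range of the DMSO values. HSP90AA1 was thus at a log2 fold change of 0.066 (SE 0.081, 95% confidence interval -0.11 to 0.24). It fell to 0.012 without lenalidomide replicate 3 and reached 0.11 without DMSO replicate 3 or without lenalidomide replicate 1.

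HSP90AB1 lies on chromosome 6 from 44213903 to 44221625 on the plus strand. It had 11230, 9844, 12890 and 10260 CPM with DMSO and 10290, 11460, 10680 and 9493 CPM with lenalidomide. DMSO replicate 3 was the highest library and lenalidomide replicate 4 the lowest, and the others were mixed. For HSP90AB1 the log2 fold change came to -0.077 (standard error 0.093, 95% confidence interval -0.28 to 0.12), and without DMSO replicate 3 it was 0.0011. For both HSP90 genes the difference between treatments was smaller than the spread between replicates, with exact two-sided permutation p-values of 0.457 for HSP90AA1 and 0.543 for HSP90AB1.

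DNAJB1 encodes an HSP40 co-chaperone that stimulates the ATPase of HSP70 and is among the strongest targets of HSF1. It lies on chromosome 19 from 14625581 to 14671203 on the minus strand, where 525 of its exonic bases overlap TECR on the opposite strand. It had 193, 207, 202 and 202.5 CPM with DMSO and 198, 217, 209 and 195 CPM with lenalidomide. The coefficient of variation with DMSO was 2.87%, the lowest of any member in either treatment. Lenalidomide replicates 2 and 3 were above all DMSO values and replicates 1 and 4 were not. For DNAJB1 the log2 fold change came to 0.024 (standard error 0.053, 95% confidence interval -0.089 to 0.14). This was the narrowest interval of the 9 genes, and its upper end is a rise of 9.98%. Without lenalidomide replicate 1 the upper end was higher, at a log2 fold change of 0.17.

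BAG3 encodes a co-chaperone that links HSP70 to selective autophagy and is known for induction by proteasome inhibitors. It lies on chromosome 10 from 121410892 to 121437331 on the plus strand, and none of its 32-base words occurs elsewhere. It had 114, 112, 131 and 115 CPM with DMSO and 120, 109, 116 and 120 CPM with lenalidomide. DMSO replicate 3 stood above all other libraries, and the log2 fold change was -0.023 (standard error 0.060, 95% confidence interval -0.15 to 0.11).

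HSPB1 encodes HSP27, a small heat shock protein that holds unfolded clients without using ATP. It lies on chromosome 7 from 75931990 to 75933612 on the plus strand. It had 76.1, 89.8, 73.4 and 86.4 CPM with DMSO and 76.8, 70.3, 86.9 and 93.2 CPM with lenalidomide, and both the highest and the lowest library were lenalidomide libraries. Its coefficient of variation with lenalidomide, 12.5%, was the highest of any member. The log2 fold change was 0.0059 (standard error 0.087, 95% confidence interval -0.18 to 0.19).

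**Figure D3:**
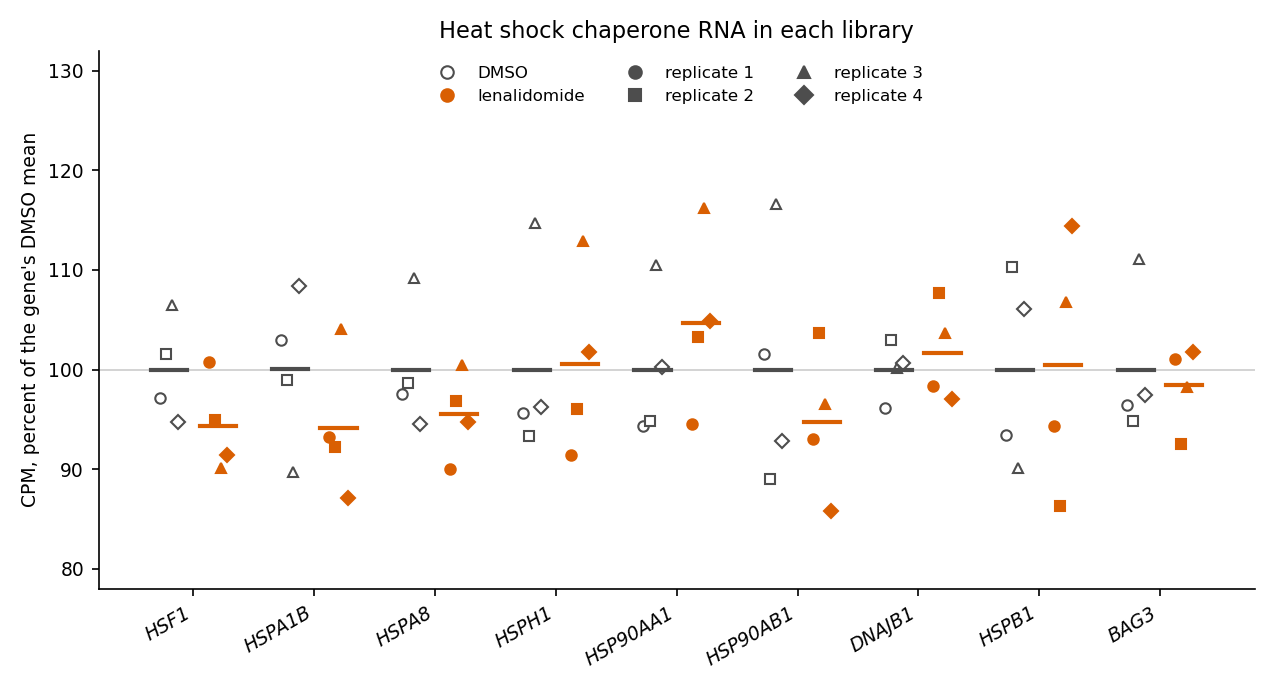
CPM of the 9 tested heat shock genes in each library on the y axis, as percent of the mean of the gene's 4 DMSO libraries, with open symbols for DMSO, filled symbols for lenalidomide, symbol shapes for replicates and lines for group means. Values lie between 85.9% and 116.6% of the DMSO mean, and the treatments overlap for every gene.

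Several members shared their highest library. DMSO replicate 3 was the highest DMSO library for 6 of the 9 members, namely HSF1, HSPA8, HSPH1, HSP90AA1, HSP90AB1 and BAG3, and the lowest for HSPA1B and HSPB1. The summed level of the members was 29870 CPM in that library, between 24790 and 26060 CPM in the other DMSO libraries, and between 24620 and 27540 CPM with lenalidomide. Most of the sum in that library came from HSP90AB1, HSP90AA1 and HSPA8, at 12890, 8799 and 7027 CPM. A high DMSO replicate 3 was not particular to the members. The other 104 listed genes summed to 28090 CPM there and to between 25650 and 26280 CPM in the other DMSO libraries. Among the lenalidomide libraries, replicate 3 was the highest for 4 members, HSPA1B, HSPA8, HSPH1 and HSP90AA1. Without DMSO replicate 3 the median log2 fold change of the 9 members was 0.0011.

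The levels of the members differed far more among themselves than between treatments. HSP90AB1 had more counts than any other gene of the table in each of the 8 libraries, with 0.970% to 1.25% of all counts. HSP90AA1 and HSPA8 ranked 2 and 3 by counts over all libraries, and the 10 members together held 2.503% to 2.898% of the counts of a library. Per length of the deposited exonic width, HSP90AB1 stood at 3707 CPM per kb over the 8 libraries (range 3268 to 4436), rank 3 of 23459 rows. HSPA8 followed at 2194 CPM per kb (2021 to 2452) and HSP90AA1 at 1817 CPM per kb (1675 to 2063), ranges that overlap. With the GENCODE width the last 2 changed places, at 1297 CPM per kb for HSPA8 and 1599 for HSP90AA1.

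The other 6 tested members stood lower. HSPH1 had 99.3 CPM per kb (90.5 to 113.6), DNAJB1 86.5 (82.4 to 92.3) and HSPB1 77.9 (67.1 to 88.9), so that neighbours in this order overlapped. BAG3 had 45.6 CPM per kb (42.6 to 51.1) and HSF1 31.1 (28.9 to 34.1), apart from each other and from the rest. HSPA1B came last of the tested members at 6.74 CPM per kb. With GENCODE widths DNAJB1 fell to 24.8 CPM per kb, below HSPB1 at 50.3, BAG3 at 42.8 and HSPA1B at 33.7, and HSF1 came last at 12.9, so that the order below HSPH1 rests on the gene model. Of the 32-base words in the exons of HSP90AB1, HSP90AA1 and HSPA8, 37.9%, 33.2% and 23.3% occur elsewhere in the genome, so that the authors' handling of reads with several matches, which is stated only as default, bears on these levels.

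**Figure D4:**
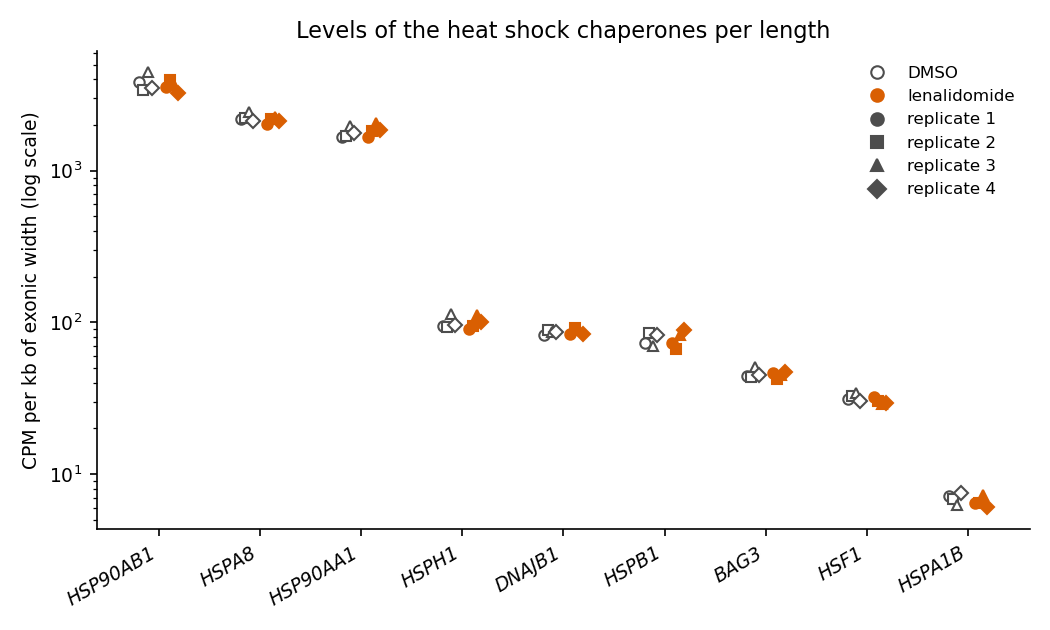
Level of the 9 tested heat shock genes in CPM per kb of deposited exonic width on a log scale, 1 point for each library, with open symbols for DMSO and filled symbols for lenalidomide. HSP90AB1, HSPA8 and HSP90AA1 lie between 1675 and 4436 CPM per kb, the other genes at or below 113.6 CPM per kb.

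Other genes of the heat shock and chaperone systems were read from 8 lists of 104 genes in all, which overlap in part, and 94 of them were tested. Of these 94 genes, 0 had an adjusted p under 0.05, 0 an unadjusted p under 0.05 and 0 had treatments that did not overlap, by edgeR's quasi-likelihood test and the same CPM values. Over all genes tested these shares were 0.0144%, 4.18% and 2.08%, in the same order. Log2 fold changes lay between -0.16 and 0.12, and 25 were above 0 and 69 below. Among all genes tested 48.7% were below 0, with a median of 0.0025. The lists' medians were between -0.061 and 0.062, the latter from a list with 3 tested genes.

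Among the other HSF1-inducible genes, of which 21 of 23 were tested, the median log2 fold change was -0.061, and -0.0097 without DMSO replicate 3. UBB, a polyubiquitin gene, had the smallest p of all 94 and the highest level per length of its list. It stood at 536, 518, 658 and 546 CPM with DMSO and 514, 523, 548 and 432 CPM with lenalidomide, where DMSO replicate 3 and lenalidomide replicate 4 lay apart from the rest in opposite directions. Its log2 fold change was -0.16 (standard error 0.086, 95% confidence interval -0.35 to 0.023, adjusted p = 0.999 by the quasi-likelihood test). HSPA6, an HSP70 gene that is expressed almost only under stress, had 1 count in DMSO replicate 3 and 0 in the other 7 libraries, and CRYAB, a small heat shock protein, had 1 count in DMSO replicate 1 and 0 elsewhere. A count of 0 allows up to 3 counts, for counting error only, and these genes were named after their counts were seen.

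No other family held a gene past the threshold. In the HSF family and its direct regulators 5 of 6 genes were tested, with a median of -0.056, which turned to 0.0088 without DMSO replicate 2, 0.017 without lenalidomide replicate 3 and 0.0086 after thinning. With all libraries and counts kept, that median is the value of 1 gene at a low level. This gene averaged 0.85 CPM with DMSO and 0.83 CPM with lenalidomide, with a 95% confidence interval of -0.79 to 0.67. HSF2, another heat shock factor, ranged from 31.5 to 38.1 CPM with DMSO and from 32.95 to 35.4 CPM with lenalidomide, and HSBP1, which binds HSF1, was at 330.0 ± 22.6 and 315 ± 27.1 CPM (SD, n = 4 each). Among 17 tested HSP70 and HSP110 paralogs and exchange factors the median was -0.025 (0.00056 without DMSO replicate 3 and 0.0075 without lenalidomide replicate 4), and BAG5, an exchange factor of HSP70, had the smallest p (log2 fold change -0.064, 95% confidence interval -0.17 to 0.043). Among 21 J-domain proteins it was -0.033 (0.0052 without lenalidomide replicate 4), and DNAJB12, an HSP40 of the endoplasmic reticulum membrane, had the smallest p (log2 fold change -0.10, 95% confidence interval -0.22 to 0.015). DNAJA1, the most abundant of that list per length, averaged 707 CPM with DMSO (SD 68.9, n = 4) and 678 CPM with lenalidomide (SD 78.7, n = 4).

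Among 17 HSP90 paralogs and co-chaperones the median was -0.032, and 0.023 without DMSO replicate 3. FKBP5, a co-chaperone of steroid receptors, stood 0.099 higher on the log2 scale (95% confidence interval -0.033 to 0.23, adjusted p = 0.999 by the quasi-likelihood test). HSP90B1, the HSP90 of the endoplasmic reticulum, averaged 2184 CPM with DMSO (SD 211, n = 4) and 2183 CPM with lenalidomide (SD 122, n = 4). Of 9 genes listed by symbol as small heat shock proteins 3 were tested, with a median of 0.062. The median was -0.0089 without DMSO replicate 3 and -0.00090 without lenalidomide replicate 2. With all libraries kept, that median is the value of 1 gene with few counts. This gene averaged 0.28 CPM with DMSO and 0.29 CPM with lenalidomide, with a 95% confidence interval of -0.67 to 0.79. The other 2 were HSPB8, a partner of BAG3, at 2.40 ± 0.158 and 2.52 ± 0.314 CPM, and HSPB11 at 37.9 ± 1.95 and 38.3 ± 1.13 CPM (SD, n = 4 each).

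Mitochondrial chaperones, of which all 11 were tested, had a median of -0.044, with 10 below 0. HSPD1, the mitochondrial HSP60 and the most abundant of them per length, averaged 1955 CPM with DMSO (SD 57.1, n = 4) and 1868 CPM with lenalidomide (SD 95.4, n = 4). HSPA9, the mitochondrial HSP70 and the most abundant of the HSP70 list per length, had 1559 ± 48.9 and 1512 ± 94.0 CPM, and CLPB, a mitochondrial disaggregase, had the smallest p of that list (log2 fold change -0.073, 95% confidence interval -0.21 to 0.065). The 14 genes of the TRiC chaperonin, which folds actin and tubulin, and of prefoldin had a median of -0.046, with 13 below 0. CCT6A had the smallest p (log2 fold change -0.080, 95% confidence interval -0.22 to 0.056) and CCT3 the highest level per length, with means of 1029 CPM for DMSO (SD 25.9, n = 4) and 1006 CPM for lenalidomide (SD 70.9, n = 4). Without lenalidomide replicate 4 the medians of these 2 lists were -0.021 and -0.0073.

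**Figure D5:**
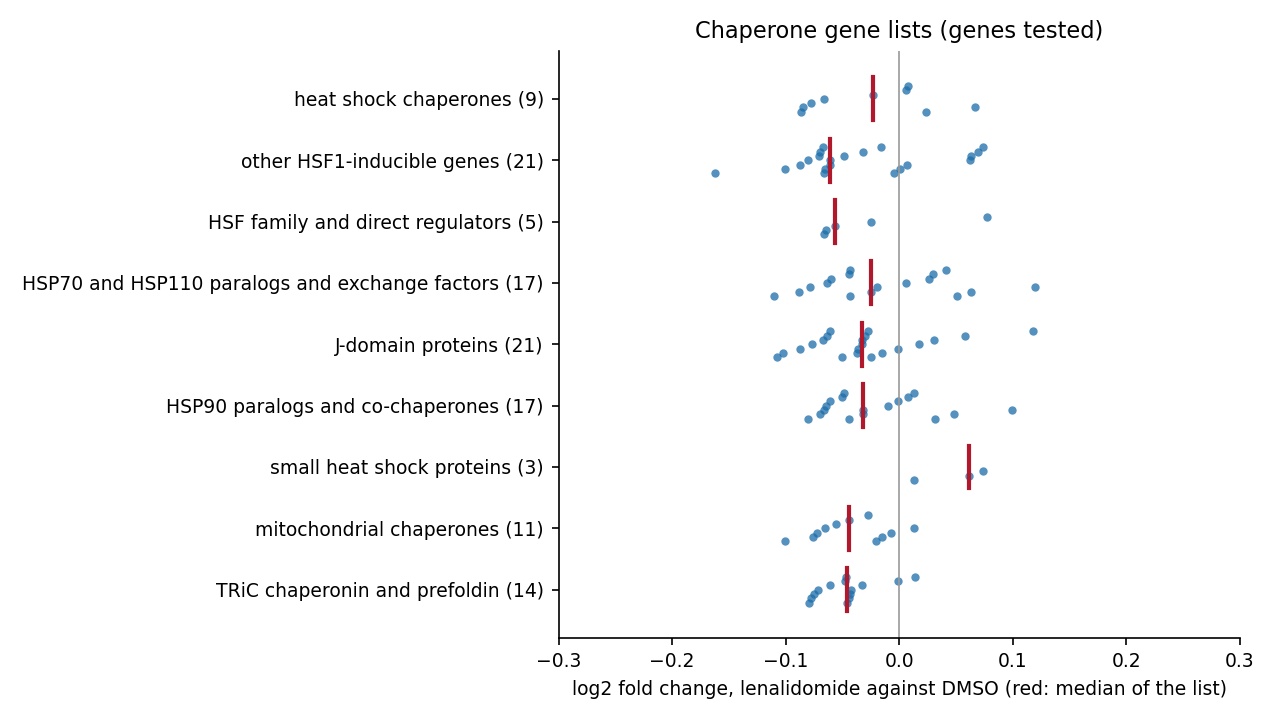
Log2 fold change of lenalidomide against DMSO on the x axis for each tested gene of the heat shock chaperones and of 8 further lists on the y axis, with red lines for list medians and the number of genes tested in brackets. List medians lie between -0.061 and 0.062, and no gene lies beyond -0.16 or 0.12.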

How the data were processed

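The authors aligned total RNA reads (ScriptSeq v2 libraries) to hg19 with QuasR, allowing spliced alignment, and deposited raw counts per gene for UCSC known genes beside their exonic widths. Per the labels bcl2fastq 2.17 was used. The QuasR version, read length and strand setting are not given in the sources used here. The records describe standard DMEM, the study's methods media with heavy or light amino acids, with label swaps in part of the replicates. The software was edgeR 4.0.16 and DESeq2 1.42.0 under R 4.3.3. Genes were filtered with filterByExpr (minimum count 10, minimum total 15), scaled with TMM and compared with the quasi-likelihood test, with Benjamini-Hochberg adjustment over all 13925 genes kept. CPM use TMM-scaled library sizes. Standard errors and 95% intervals were derived from the quasi-likelihood F, and the median coefficient of variation between replicates beyond counting error was 7.41%. P-values set the difference between treatments against the spread between these libraries.

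The 10 members and the gene lists were chosen with earlier results of these data known. Genes named are the members and, of each other list, genes past the threshold, the gene with the smallest p and the tested gene with the highest level per length. Positions and exons are from GENCODE v44 on GRCh37. The tests were tested on simulated data. No library was a copy of another, with chi-square values divided by their degrees of freedom of at least 5.72 over the 28 pairs. The level of 1 leukocyte marker is not reported here.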

Additional observations from a re-analysis of the deposited data

Results flagged for a closer look

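Of 48 groups of 4 values examined, 2 had 1 library standing apart, and about 2.4 such groups arise by chance. DMSO replicate 3 held HSPH1 at 593.8 CPM, while the other DMSO libraries ranged from 484 to 499 CPM. It also held BAG3 at 131.3 CPM, while the others ranged from 112 to 115 CPM. Leaving this library out gave log2 fold changes of 0.076 for HSPH1 and 0.028 for BAG3, and its part in the results was not tested further.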

How the results depend on the processing

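No member and none of the other named genes passed an adjusted p of 0.05 under any of the alternatives run, namely DESeq2, RLE scaling, edgeR's likelihood ratio test, both filters, the replicate block, thinning to the smallest library and leaving out each library in turn. The lowest adjusted p was 0.790 for the members and 0.721 for the other named genes. The number of all genes called, 2, became 12 by the likelihood ratio test, 9 by DESeq2, 4 when all genes with any count were kept, 6 under the replicate block, and from 1 to 2 when each library was left out. The cause was not tested. Same-numbered libraries correlated at 0.0678, 0.00716, -0.014 and 0.327, and those with different numbers between -0.367 and 0.18, so the numbers were not taken as pairs. The block changed no member's call, and with it the summed HSPA1A and HSPA1B had a log2 fold change of -0.085. When all genes with any count were kept, the CPM of 1 member, HSPA1A, did not overlap and were higher with lenalidomide. Its counts did overlap, at 0 to 1 a library with DMSO and 1 to 2 with lenalidomide. Each lenalidomide library was smaller than each DMSO library. The share of all genes without overlap under this filter is not given here. From 0 to 1 members, HSPA1B, had an unadjusted p under 0.05 when each library was left out. With 1 mismatch allowed, 7 of the 9 members and 6.54% of genes held a 3-unit heat shock element. Levels with GENCODE widths were chosen after the data were seen.

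Of 135 alternative values for the members 15 changed sign, as did 11 of 225 for the other named genes. HSPH1 was -0.00084 and HSPB1 -0.0034 when all genes with any count were kept, HSPB1 -0.0035 after thinning, and HSP90B1 0.00044 where every library needed 10 counts and 0.0024 with the replicate block. Leaving out each library gave ranges of -0.054 to 0.076 for HSPH1, -0.062 to 0.072 for HSPB1, -0.13 to 0.0011 for HSP90AB1, -0.0049 to 0.046 for DNAJB1, -0.047 to 0.028 for BAG3, -0.13 to 0.0052 for DNAJA1, -0.033 to 0.063 for HSP90B1, -0.013 to 0.13 for HSPB8, -0.0089 to 0.050 for HSPB11 and -0.064 to 0.0063 for CCT3. Every other tested member kept its sign throughout, with ranges of -0.12 to -0.056 for HSF1, -0.14 to -0.045 for HSPA1B, -0.092 to -0.024 for HSPA8 and 0.012 to 0.11 for HSP90AA1, and that of the summed HSPA1A and HSPA1B ran from -0.14 to -0.045.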

Other observations

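Within a library the ratio of HSP90AA1 to HSP90AB1, as counts per kb of deposited width, was 0.433, 0.497, 0.442 and 0.504 in DMSO replicates 1 to 4 and 0.474, 0.465, 0.561 and 0.570 in lenalidomide replicates 1 to 4, so that lenalidomide replicates 3 and 4 were above every DMSO library and replicates 1 and 2 were not. This ratio does not depend on the scaling of libraries. It was not among the planned comparisons. The log2 fold changes of HSP90AA1 and HSP90AB1, 0.066 and -0.077, already have opposite signs, so that the ratio adds no separate result.

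Log2 fold changes below 0 were seen for 69 of the 94 other chaperone genes tested. Of the 2436 genes that averaged 100 CPM or more, a bound chosen after the data were seen, 61.6% were below 0 with a median of -0.016, and among all genes tested 48.7% were. The 94 chaperone genes were not held to that bound, and a part of them averaged less, so that these shares are for unlike sets. Summed over all 104 listed genes, tested or not, they stood at 25650 to 28090 CPM with DMSO and 24170 to 27150 CPM with lenalidomide.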
